A study of Homo sapiens with 3 samples.

Results

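The DREAM complex genes, FOXM1 and MYBL2 were followed by RNA sequencing in TOV21G cells, a line of human clear cell ovarian cancer with a mutated ARID1A gene, whose product belongs to the SWI/SNF chromatin remodeller. The 10 genes were taken by symbol from a table of 57736 genes: FOXM1, MYBL2, LIN9, LIN37, LIN52, LIN54, RBL1, RBL2, E2F4 and TFDP1. Each had 1 row, and all 10 were among the 14524 genes with enough counts to be tested. The samples were 1 library labelled wild type for HDAC2 (WT), a class I histone deacetylase gene, and 2 libraries of HDAC2 knockdown cells, made with a different lentiviral short hairpin RNA each, shRNA 1 and shRNA 2. All were of the same cell line, so the WT cells carry the ARID1A mutation too. The labels mention no control virus for WT, so depletion of HDAC2 and transduction itself cannot be told apart.

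DREAM is the complex that keeps cell cycle genes silent in resting cells. Its core, called MuvB, is made of LIN9, LIN37, LIN52, LIN54 and the histone-binding protein RBBP4, and it binds a pocket protein (p107 from RBL1 or p130 from RBL2) together with E2F4 or E2F5 and a dimerisation partner such as DP1, the product of TFDP1. When cells enter the cycle the pocket protein and E2F leave, MuvB is bound by B-MYB, the product of MYBL2, and later by the forkhead factor FOXM1, and the same core then activates genes of G2 and mitosis. The kinase inhibitor p21 favours the repressing form, because it keeps cyclin-dependent kinases from phosphorylating the pocket proteins.

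Total counts were between 10138479 (WT) and 11398791 (shRNA 1), and levels are given as CPM, counts scaled to a common library size with TMM factors. HDAC2 itself was at 105 CPM in WT, 33.4 with shRNA 1 and 51.6 with shRNA 2, so both knockdown libraries were lower, as their labels state. Among markers of clear cell carcinoma and epithelium, PAX8, KRT8 and KRT18 were well counted in the 3 libraries. EPCAM had 69, 86 and 122 counts and NAPSA 1, 4 and 1, in WT, shRNA 1 and shRNA 2. Markers of leukocytes, endothelium and fibroblasts summed to at most 3.51, 0.872 and 9.11 CPM in any library, and CD3E, CLDN5, COL3A1 and LUM were at 0 in all. The labels do not say that the knockdown libraries came from separate cultures. With 1 WT library, the p-values rest on the spread between the hairpin libraries and on a spread learned over all genes, and WT is assumed to vary likewise.

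FOXM1 and MYBL2, the activators of the late cell cycle, fell in HDAC2 knockdown cells, to 0.423 and 0.537 of WT. The other 8 genes, which encode the MuvB core, the pocket proteins, E2F4 and DP1, did not pass the test. The 2 falls, of FOXM1 and MYBL2, were 20.0% of the 10 genes, whereas 3.76% of all genes tested fell and 3.96% rose (adjusted p below 0.05 by edgeR). Of the 8 others LIN54 alone had an unadjusted p below 0.05 (unadjusted p = 0.0385 by edgeR), as did 3420 of the 14524 genes tested. By DESeq2's Wald test, where 1.86% of genes with an adjusted p fell, FOXM1 and MYBL2 were again the 2 members that passed. With all low-count genes kept in the table, edgeR called 0 of 23698 genes, although 2486 had an unadjusted p below 0.05, and the calls of FOXM1 and MYBL2 were lost (adjusted p = 0.468 for each).

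**Figure D1:**
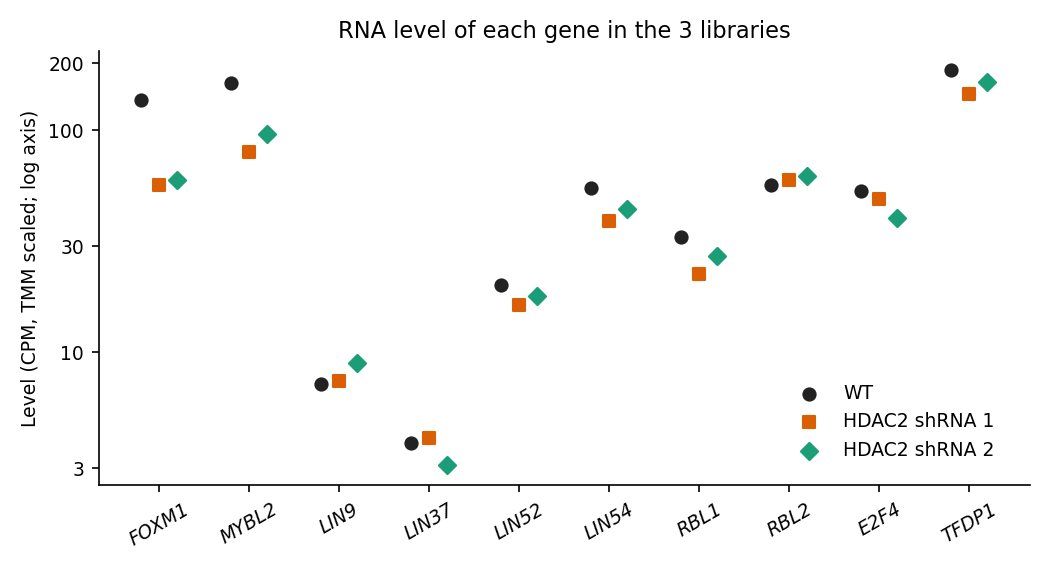
RNA level in CPM (vertical, log axis) of each of the 10 genes (horizontal) in the WT, shRNA 1 and shRNA 2 libraries, 1 point per library. FOXM1 dropped from 137 CPM to 56.6 and 59.4, and MYBL2 from 164 to 80.0 and 96.0, while RBL2 stayed between 56.7 and 62.1.

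FOXM1 (ENSG00000111206), the forkhead transcription factor of G2 and mitosis, had 1367 counts in WT, 649 with shRNA 1 and 672 with shRNA 2, or 137, 56.6 and 59.4 CPM. Both knockdown libraries lay far below WT and close to each other, at 41.3% and 43.3% of it (mean 42.3% ± 1.45, SD, n = 2). On the log2 scale FOXM1 fell by 1.24 ± 0.16 (SE), with a 95% interval from −1.58 to −0.90 and an adjusted p of 1.67e-04 by edgeR. In this bulk RNA, fewer cells in the phases that express FOXM1 and less FOXM1 RNA per cell cannot be told apart, and the same holds for each cell cycle gene below. In the reference annotation, exons of the opposite-strand gene ITFG2 cover 15.9% of FOXM1's exon bases, and whether strand was used in counting was not given. ITFG2 was at 13.0, 13.0 and 14.4 CPM in WT, shRNA 1 and shRNA 2, far under FOXM1, and its log2 change was 0.07 ± 0.23 (SE).

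MYBL2 (ENSG00000101057), which encodes the MuvB-binding activator B-MYB, was counted 1632 times in WT, 917 with shRNA 1 and 1085 with shRNA 2, or 164, 80.0 and 96.0 CPM. Both knockdown libraries were below WT, at 48.9% and 58.6% of it (mean 53.7% ± 6.89, SD, n = 2), and the hairpins lay further apart than for FOXM1. On the log2 scale MYBL2 fell by 0.90 ± 0.17 (SE), with a 95% interval from −1.26 to −0.54 and an adjusted p of 0.00321 by edgeR. FOXM1 and MYBL2 transcripts are rich in G and C, at 55.6% and 60.5%, and the median log2 change was −0.26 among tested genes at 55% GC or more against 0.24 among those under 45%. With that trend removed FOXM1 changed by −1.05 ± 0.15 (SE; adjusted p = 0.00143 by edgeR) and MYBL2 by −0.63 ± 0.17 (SE; adjusted p = 0.0485 by edgeR), so the MYBL2 call then lay just under the threshold. MYBL1, the gene of the related factor A-MYB, had 168, 244 and 137 counts in the same order of libraries and was above WT with 1 hairpin and below it with the other. MYBL2 made up 90.7% of the counts of the MYBL2 and MYBL1 pair in WT (95% exact binomial interval 89.2 to 92.0%), 79.0% with shRNA 1 (76.5 to 81.3%) and 88.8% with shRNA 2 (86.9 to 90.5%), and these intervals cover counting error only. The longest transcript of MYBL1 is 37.4% G and C, far less than that of MYBL2. Removing the GC trend moved the log2 change of MYBL1 from −0.01 to −0.32 (adjusted p = 0.616 by edgeR) and that of MYBL2 from −0.90 to −0.63. Much less of the gap between the pair was then left.

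Start-site sequence was looked at because MYBL2 and RBL1 are textbook targets of E2F and DREAM. RefSeq windows of 250 bases before to 50 after a start (GRCh38.p14) were found for 9 of the 10 genes, all but FOXM1, in 14 windows, since 4 genes have more than 1 start. An E2F match was any of TTTGGCGC, TTTCGCGC, TTTCCCGC, TTTGCCGC or the shorter core GGCGGGA on either strand, where the core can overlap TTTCCCGC. A match to the cell cycle homology region (CHR), the element that LIN54 binds, was TTTGAA on either strand. E2F letters stood in 8 of the 14 windows (57.1%) against 17.3% of all 35116 windows, and CHR letters in 5 of 14 (35.7%) against 15.2%. The windows of LIN54 overlap almost wholly, so its E2F match and its CHR match were each counted more than once. By gene, 7 of the 9 had E2F letters and 4 had CHR letters. A match describes letters only and shows no binding. The stretches below run from 5′ to 3′ on the gene's strand and lie upstream of the start, with E2F matches in capitals for RBL1, MYBL2, LIN52 and TFDP1 and the CHR match in capitals for LIN54.
RBL1, chr20:37095998-37096057, minus strand: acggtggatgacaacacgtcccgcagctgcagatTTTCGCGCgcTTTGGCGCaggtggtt
MYBL2, chr20:43667054-43667113, plus strand: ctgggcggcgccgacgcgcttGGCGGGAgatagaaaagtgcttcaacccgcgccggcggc
LIN52, chr14:74084896-74084955, plus strand: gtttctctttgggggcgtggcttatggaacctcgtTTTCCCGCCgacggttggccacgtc
TFDP1, chr13:113584553-113584662, plus strand: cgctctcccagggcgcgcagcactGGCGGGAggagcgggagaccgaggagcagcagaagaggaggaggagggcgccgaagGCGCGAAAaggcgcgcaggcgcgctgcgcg
LIN54, chr4:83010894-83010953, minus strand: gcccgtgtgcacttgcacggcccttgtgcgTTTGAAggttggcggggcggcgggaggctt

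RBL1 carries a pair of E2F matches that begin 26 and 16 bases before its start. TTTCGCGC and TTTGGCGC, the letters of that pair, stood in 0.515% and 0.652% of all windows. The MYBL2 stretch holds the shorter core, 39 bases before the start, and the core stood in 15.4% of all windows. LIN52 has the longer TTTCCCGC 25 bases before its start, overlapped by the core on the other strand. TTTGAA begins 100 bases before the LIN54 start shown. E2F4 had no match of either kind in its window, and the windows of RBL2 held CHR letters in 1 case and no E2F letters. Genes with E2F letters near the start thus include MYBL2, which fell, and LIN52 and TFDP1, which did not pass the test.

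**Figure D2:**
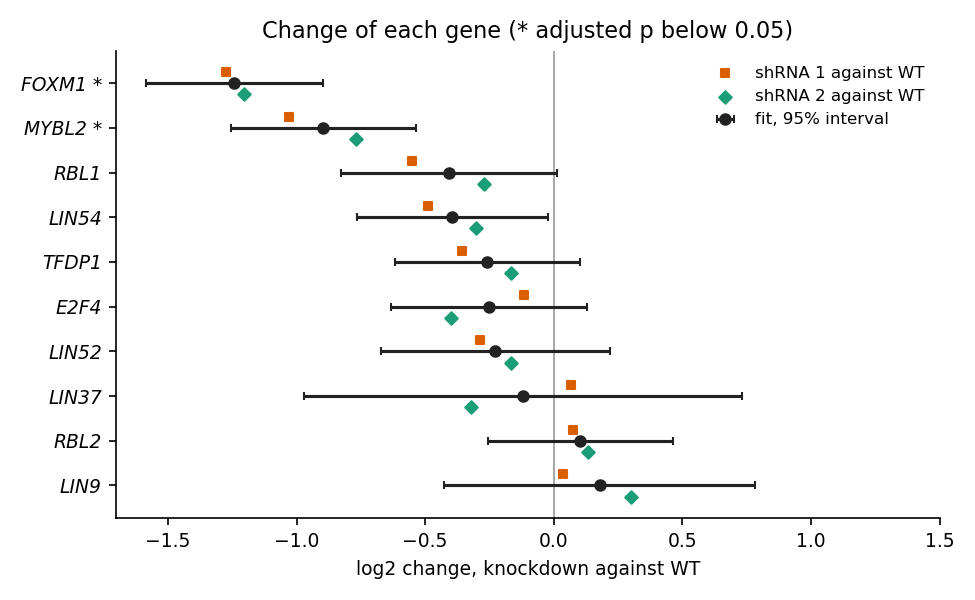
Log2 change in knockdown against WT (horizontal) for each gene (vertical), with the fitted value and its 95% interval as a black point and bar, and the change of each hairpin library alone as a coloured point without a test. The intervals of FOXM1 (−1.58 to −0.90) and MYBL2 (−1.26 to −0.54) lie wholly below 0, LIN54's ends at −0.02, and the others cross 0.

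The pocket protein genes were RBL1 (ENSG00000080839), which encodes p107 and is itself active in cycling cells, and RBL2 (ENSG00000103479), which encodes p130, the form that predominates in resting cells. RBL1 had 328 counts in WT, 257 with shRNA 1 and 308 with shRNA 2, or 32.9, 22.4 and 27.2 CPM. Both knockdown libraries were lower, but RBL1's fitted change on the log2 scale, −0.41 ± 0.20 (SE) did not pass the test (adjusted p = 0.229 by edgeR), and its 95% interval ran from −0.83 to 0.01. RBL2 had 565, 684 and 702 counts, or 56.7, 59.7 and 62.1 CPM, with both knockdown libraries slightly above WT. Its log2 change was 0.10 ± 0.17 (SE; adjusted p = 0.767 by edgeR), with an interval from −0.26 to 0.46, so a fall as large as FOXM1's lay outside it. Of the 75-base sequences in RBL2's transcripts 14.2% also occur in other genes, mainly AKTIP, which was at 32.7, 35.5 and 47.1 CPM in the same order. RBL1 made up 36.7% of the pair's counts in WT (95% exact binomial interval 33.6 to 40.0%), 27.3% with shRNA 1 (24.5 to 30.3%) and 30.5% with shRNA 2 (27.7 to 33.4%). Both knockdown shares were below WT, with intervals that do not reach the WT interval, and WT had no replicate to set the spread of this share.

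E2F4 (ENSG00000205250), the main repressing E2F of DREAM, had 529 counts in WT, 561 with shRNA 1 and 454 with shRNA 2, or 53.1, 48.9 and 40.1 CPM. It was below WT in both knockdown libraries after scaling, most with shRNA 2, and its log2 change of −0.25 ± 0.18 (SE) did not pass (adjusted p = 0.434 by edgeR). E2F5, which can take the same place in the complex, had 594 counts in WT and 960 with each hairpin, or 59.6, 83.8 and 84.9 CPM. Both knockdown libraries were above WT, and the log2 change of 0.50 ± 0.17 (SE) did not pass (adjusted p = 0.0833 by edgeR, 95% interval 0.14 to 0.86). Of E2F5's 75-base sequences 13.1% also occur in other genes. E2F5 made up 52.9% of the counts of the E2F5 and E2F4 pair in WT (95% exact binomial interval 49.9 to 55.8%), 63.1% with shRNA 1 (60.6 to 65.5%) and 67.9% with shRNA 2 (65.4 to 70.3%). E2F5's share was higher in both knockdown libraries, but the longest transcripts of the pair differ in GC content (38.3% for E2F5, 59.3% for E2F4). With the GC trend removed E2F5 changed by 0.21 and E2F4 by −0.012 on the log2 scale (adjusted p = 0.545 and 0.98 by edgeR), so much less of the gap between them was left.

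TFDP1 (ENSG00000198176), the gene of the E2F partner DP1, had 1851 counts in WT, 1664 with shRNA 1 and 1869 with shRNA 2, or 186, 145 and 165 CPM. Both knockdown libraries were below WT, by less than the test could call (log2 change −0.26 ± 0.17, SE; adjusted p = 0.391 by edgeR; 95% interval −0.62 to 0.10). TFDP2, the gene of the alternative partner DP2, was at 150, 136 and 129 CPM and did not pass (log2 change −0.18 ± 0.17, SE). TFDP1 made up 55.3%, 51.6% and 56.1% of the pair's counts in WT, shRNA 1 and shRNA 2, with shRNA 2 above WT and shRNA 1 below it.

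**Figure D3:**
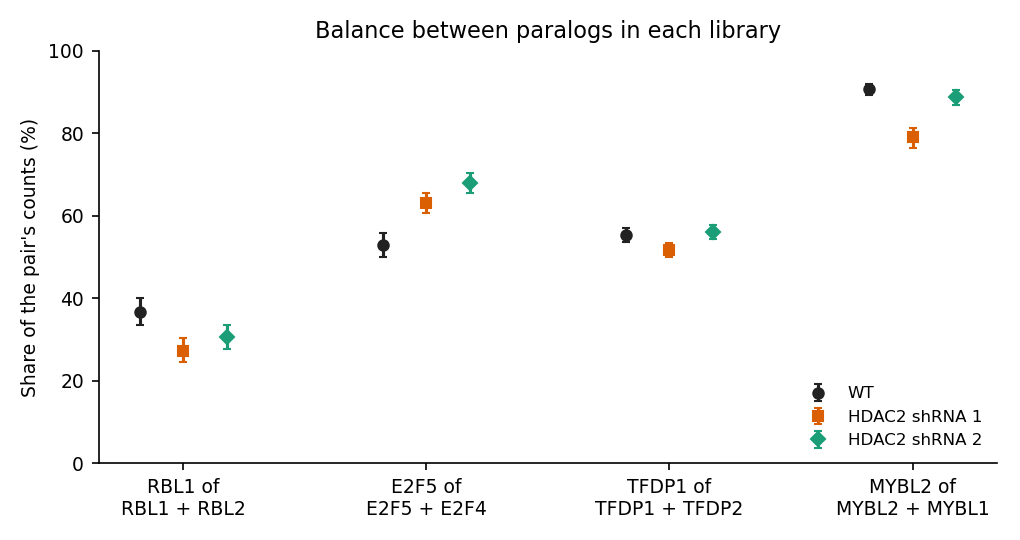
Share of a pair's counts (vertical, percent) held by the first gene of each pair (horizontal) in each library, with 95% exact binomial intervals that cover counting error only. RBL1's share is 36.7% in WT against 27.3% with shRNA 1 and 30.5% with shRNA 2, and E2F5's is 52.9% against 63.1% and 67.9%.

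In the MuvB core, LIN54 (ENSG00000189308), the subunit that contacts CHR DNA, had 545 counts in WT, 446 with shRNA 1 and 501 with shRNA 2, or 54.7, 38.9 and 44.3 CPM. Both knockdown libraries were lower, at 71.2% and 81.0% of WT, and the log2 change of −0.39 ± 0.18 (SE) did not pass (adjusted p = 0.184 by edgeR). With the GC trend removed LIN54, whose longest transcript is 39.1% G and C, changed by −0.67 ± 0.16 (SE) and passed (adjusted p = 0.0237 by edgeR), in a fit where 2.73% of all genes fell. RBL1, at 40.0% G and C, then changed by −0.65 ± 0.18 (SE) and missed the threshold (adjusted p = 0.0533 by edgeR).

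LIN52 (ENSG00000205659), the subunit whose phosphorylation by the kinase DYRK1A lets MuvB bind the pocket proteins, had 200 counts in WT, 188 with shRNA 1 and 202 with shRNA 2, or 20.1, 16.4 and 17.9 CPM. Its log2 change was −0.23 ± 0.21 (SE; 95% interval −0.67 to 0.22). DYRK1A was at 46.6, 45.2 and 46.9 CPM, with a log2 change of −0.02 ± 0.18 (SE; 95% interval −0.39 to 0.35). LIN9 (ENSG00000183814), a scaffold of the core, had 72, 85 and 101 counts, or 7.22, 7.42 and 8.93 CPM, and was the member with the highest fitted change, 0.18 ± 0.29 (SE; 95% interval −0.43 to 0.78). LIN37 (ENSG00000267796), a subunit needed for repression, had 39, 47 and 35 counts, above WT with shRNA 1 and below it with shRNA 2 after scaling. Counting alone left LIN37's WT count between 27.7 and 53.3 (95% exact Poisson interval), and its fitted interval ran from −0.97 to 0.73, the widest of the 10. LIN37 is uncertain for a further reason, since 46.4% of its 75-base sequences also occur in overlapping genes. One of them, ENSG00000188223, lies on the same strand, bears the symbol PSENEN in the table and had 133 counts in WT, 191 with shRNA 1 and 131 with shRNA 2, more than LIN37 in each library. RBBP4, the histone-binding subunit that MuvB shares with other complexes, was at 376, 316 and 370 CPM, with a log2 change of −0.13 ± 0.17 (SE). RBBP4 shares 16.9% of its read-length sequences with SYNC and with pseudogenes.

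Over the 10 genes, 7 were below WT in both knockdown libraries and 2, LIN9 and RBL2, above it in both, with LIN37 split. Among all genes tested 39.3% were below in both and 39.9% above in both. With the GC trend removed the fitted changes of LIN9 (−0.033), RBL2 (−0.046) and LIN37 (0.12) took the other sign, so their directions depend on that trend. E2F4's change kept its sign but was then near 0 (−0.012). The median log2 change was −0.26 over the 10, −0.24 over the 8 without FOXM1 and MYBL2, and 0.01 over all genes tested. FOXM1 and MYBL2 together held 42.1% of the 10 genes' counts in WT, 28.5% with shRNA 1 and 29.6% with shRNA 2. The summed level of the other 8 was 414 CPM in WT, 343 with shRNA 1 and 369 with shRNA 2. Of the 10 genes 8 were higher with shRNA 2 than with shRNA 1, all but E2F4 and LIN37, and of all genes tested 7290 of 14524 were. HDAC2 was also higher with shRNA 2, and the part that the depth of knockdown plays in this was not tested.

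Levels were compared between genes per kilobase of the longest coding transcript, which is only a guide because isoform use was not measured. In WT the order ran from TFDP1 (70.1 CPM per kilobase), MYBL2 (60.5), FOXM1 (39.3) and E2F4 (25.3) to RBL2 (11.6), LIN54 (8.92), LIN52 (7.23), RBL1 (5.79), LIN37 (3.40) and LIN9 (2.03). Of the 10, MYBL2 and FOXM1 thus ranked near the top in WT, and LIN37 and LIN9 last. In the knockdown libraries E2F4, at 23.4 and 19.2 CPM per kilobase, stood above FOXM1, at 16.2 and 17.0. LIN54 (6.35 and 7.23) stayed above its neighbour LIN52 (5.91 and 6.44) within each knockdown library, although LIN54 with shRNA 1 lay below LIN52 with shRNA 2. Per kilobase of all annotated exons, MYBL2 stood above TFDP1 in WT, LIN9 above LIN37, LIN54 above RBL2 and RBL1 above LIN52, and E2F4 (13.7 and 11.2) no longer separated from FOXM1 (11.6 and 12.1) in the knockdown libraries.

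Among 22 partners and regulators of the complex, 5 fell and 3 rose, 14 missed the threshold, and the median change was −0.10 on the log2 scale. E2F2 and E2F1, activating E2F genes, and CCNA2, the gene of cyclin A2, fell most. E2F2 was at 37.6, 14.1 and 12.2 CPM in WT, shRNA 1 and shRNA 2 (log2 change −1.51 ± 0.20, SE; adjusted p = 1.87e-04 by edgeR). E2F1 was at 25.5, 11.8 and 12.3 CPM (log2 change −1.08 ± 0.21, SE), a call that DESeq2's Wald test did not make (adjusted p = 0.107). CCNA2 was at 167, 71.5 and 89.3 CPM (log2 change −1.05 ± 0.18, SE). CDKN1A, the gene of p21, was at 326, 1121 and 760 CPM, so it rose by 1.53 ± 0.20 on the log2 scale (SE; adjusted p = 1.67e-04 by edgeR). CCND2, the gene of cyclin D2, whose kinase phosphorylates pocket proteins, was at 60.5, 213 and 123 CPM (log2 change 1.47 ± 0.25, SE), and DESeq2 did not call it (adjusted p = 0.243).

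Lists of known targets of the complex were set beside all genes tested, of which 3.76% fell and 39.3% were below WT in both knockdown libraries. Of 38 genes of G2 and mitosis known as targets of MuvB, B-MYB or FOXM1, 24 fell and 14 missed the threshold. The median change was −0.86 on the log2 scale, and in each knockdown library all 38 were lower than in WT. CDK1 with shRNA 2 hardly differed from WT, at 108 CPM in each. CDC20, the activator of the anaphase-promoting complex, was at 198, 70.3 and 91.8 CPM in WT, shRNA 1 and shRNA 2 (log2 change −1.29 ± 0.18, SE). KIF20A, a kinesin of cytokinesis, was at 216, 82.7 and 97.2 CPM (−1.26 ± 0.17, SE), and PTTG1, the gene of securin, at 811, 308 and 426 CPM (−1.14 ± 0.18, SE). Of 32 G1/S genes known as targets of E2F and DREAM, 23 fell and 9 missed the threshold, and DESeq2's Wald test called 15. Their median was −0.79, and 31 were lower than in WT with either hairpin. CDT1, a replication licensing factor, was at 37.2, 12.0 and 14.5 CPM (−1.49 ± 0.21, SE), and TK1, thymidine kinase, at 188, 66.7 and 67.7 CPM (−1.48 ± 0.16, SE). MCM5, a subunit of the replicative helicase, was at 98.3, 40.0 and 41.8 CPM (−1.27 ± 0.17, SE). With the GC trend removed, in a fit where 2.73% of all genes fell, 33 of the 38 G2 and mitosis genes fell. In that fit 23 of the 32 G1/S genes fell. These lists were drawn up with earlier results of these libraries known, so their counts are no independent evidence of direction.

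**Figure D4:**
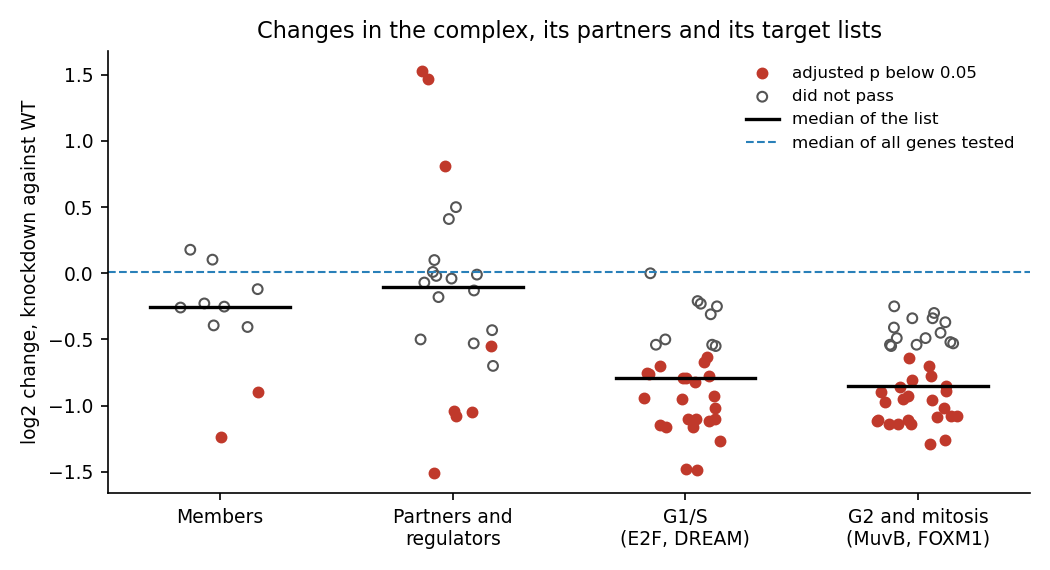
Log2 change in knockdown against WT (vertical) of the 10 genes, their partners and regulators, and the target lists (horizontal), 1 point per gene, filled where the adjusted p was below 0.05. Black lines mark list medians (−0.26, −0.10, −0.79 and −0.86 from left to right) and the dashed line the median of all genes tested, 0.01.

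The genes most like FOXM1 in their pair of hairpin changes, among 11197 others whose mean count reached 50, were MCM5, H2AFX (a histone variant gene) and RECQL4 (a DNA helicase gene), at distances of 0.0333, 0.0391 and 0.0411 on the log2 scale. FOXM1 changed by −1.27 with shRNA 1 and −1.20 with shRNA 2, and MCM5 by −1.29 and −1.23. Most like MYBL2, which changed by −1.03 and −0.77, were DEPDC1, at a distance of 0.00368, BCL2L12 (0.0199) and RCCD1 (0.0275). With the GC trend removed the fitted change of DEPDC1 was −1.30 against −0.63 for MYBL2, so the closeness of these genes depends on that trend. BCL2L12 (−0.67) and RCCD1 (−0.68) stayed near MYBL2 in that fit. The likeness rests on 3 libraries and on a WT library common to every change, so it describes these values only.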

How the data were processed

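The authors deposited 1 column of estimated counts for each library, by Ensembl gene. All were whole, so rounding altered none. The submitters' processing notes name edgeR, RSEM 1.2.3 and hg19, without roles. Per the labels' protocols, total RNA was made into ScriptSeq Gold libraries and read at 75 bases on a NextSeq 500.

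Libraries were grouped by title (WT, n = 1; knockdown, n = 2). The whole table was fitted with edgeR 4.0.16 in R 4.3.3 (quasi-likelihood test, TMM, filterByExpr, Benjamini-Hochberg over 14524 genes, adjusted p below 0.05), with 1 residual and 18.9 prior degrees of freedom. SE and intervals were computed from the F statistic. Changes per hairpin, on log2 CPM (prior count 2), were not tested. The fit was tested on simulated data. A count of 0 allows up to 3 counts, 0.301 CPM in WT. Lengths, GC content and shared sequences come from GENCODE 29 (GRCh38).

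The members and lists were chosen with earlier results of these data known. Named genes were all members, RBBP4, E2F5, TFDP2, MYBL1 and DYRK1A, up to 3 falling and 2 rising genes per list, those with the largest change, and the 3 nearest to FOXM1 and to MYBL2. ITFG2, AKTIP and the overlapping gene of LIN37 were named for their overlap. Alternatives were other scalings, filters, DESeq2 1.42.0, a GC trend removed by a lowess curve per library, and each hairpin left out. PECAM1, an endothelial marker on the list, was not found by symbol among the counted genes and so was not analysed.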

Additional observations from a re-analysis of the deposited data

How the results depend on the processing

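FOXM1 and MYBL2 kept their direction under every alternative run, with log2 changes from −1.27 to −1.05 and from −1.03 to −0.63, and kept their calls in all that had a test except that without a count filter. Without the filter, 0 of all genes, 0 of the 10 members and 0 of each of the 3 lists passed by edgeR, with 2486 genes at an unadjusted p below 0.05, and the cause was not tested. With the GC trend removed 632 genes passed (396 down, 236 up, against 546 and 575), 3 members among them. LIN9, LIN37 and RBL2 then reversed, to −0.033, 0.12 and −0.046, and RCCD1 lost its call (adjusted p = 0.147 by edgeR); the cause was not tested. DESeq2's Wald test called 306 genes, 5 partners and 15 G1/S genes against 1121, 8 and 23. It gave LIN9, LIN37, RECQL4 and RCCD1 no adjusted p, and BCL2L12 missed its threshold (adjusted p = 0.0594 by DESeq2's Wald test). With library size alone MYBL1 and DYRK1A reversed, to 0.021 and 0.018, and E2F5 passed at 0.53 (adjusted p = 0.0497 by edgeR), whereas with the GC trend removed it was at 0.21. Leaving out either hairpin gives a value without a test, and the members then ranged from −1.27 (FOXM1) to 0.30 (LIN9). No paired analysis was possible because WT has 1 library and shares fewer than 2 replicate numbers with the knockdown group. Depth limits LIN37 and LIN9 most.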

Other observations

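Letters near the start differed between the target lists. CHR letters stood in 26 of 42 windows of the G2 and mitosis genes (61.9%), in 1 of 42 windows of the G1/S genes (2.38%) and in 15.2% of all windows. E2F letters stood in 26.2% of the first, 64.3% of the second and 17.3% of all. The motif CCAAT, bound by NF-Y, was in 78.6% and 64.3% of the windows of these lists and in 34.6% of all, but in 3 of the 14 windows of the DREAM genes (21.4%). The lists were made of known targets, so these shares in part follow from how they were chosen.

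RB1, the gene of the third pocket protein, was at 108, 140 and 147 CPM in WT, shRNA 1 and shRNA 2, above WT in both knockdown libraries, as RBL2 was, and did not pass (log2 change 0.41 ± 0.17, SE; adjusted p = 0.162 by edgeR). RB1's longest transcript is 37.3% G and C, and tested genes under 45% had a median log2 change of 0.24. RBL2 took the other sign with the GC trend removed (−0.046). CCNF, the gene of cyclin F, was at 40.5, 20.9 and 18.7 CPM (log2 change −1.04 ± 0.19, SE), and CCNE1, the gene of cyclin E1, at 21.1, 19.4 and 21.6 CPM (−0.04 ± 0.21, SE). GINS1 was the G1/S gene not below WT in both libraries, at 69.0, 61.7 and 76.0 CPM. RB1, CCNF, CCNE1 and GINS1 were chosen after their values were seen.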
